A study of Mus musculus with 6 samples.

Results

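A set of 23 named genes was close to undetected in oocytes matured in vivo (IVO) and present in every pool of oocytes matured in vitro (IVM). The members were chosen by their measured FPKM values among the 53700 Ensembl genes of the expression table, with 2 limits. FPKM counts fragments per kilobase of transcript, scaled to the number of mapped fragments of the library. Each of the 3 IVM libraries had to reach at least 3 FPKM, and each of the 3 IVO libraries had to stay at or below 0.5 FPKM. Of the 9342 Ensembl genes with every IVM value at or above 3 FPKM, the members made up 0.246%. The mirror rule, with the groups exchanged, found 0 genes among the 8584 with every IVO value at or above 3 FPKM. All differences between IVM and IVO given for the members describe the values that chose them, so no test is attached to them.

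The libraries came from metaphase II (MII) oocytes of ICR mice aged 42 to 45 weeks, an outbred strain used here near the end of reproductive life. Each of the 6 libraries was made from a pool of 20 oocytes from 3 mice. IVM oocytes were taken from the ovary, stripped of cumulus cells by pipetting and cultured for 12 h in M16 medium. All donors were primed with pregnant mare serum gonadotropin. IVO oocytes were ovulated after a further injection of human chorionic gonadotropin (hCG) and taken from the oviduct 14 h later, and their cumulus cells were removed with hyaluronidase. The groups therefore differed in exposure to hCG, medium, handling and cumulus removal together, and these cannot be told apart. In pooled oocytes, fewer oocytes carrying a transcript and less of it per oocyte cannot be told apart either. The 3 pools per group are the replicates, so p-values set the difference between groups against the spread between pools. That spread was moderated over all tested genes.

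An MII oocyte does not transcribe. Its RNA was made during growth of the oocyte and is stored, polyadenylated, deadenylated or degraded as meiosis proceeds. Small nucleolar RNAs (snoRNAs) of the H/ACA class guide pseudouridylation and end in a conserved ACA triplet, small nuclear RNAs (snRNAs) act in splicing, and processed pseudogenes are copies of a messenger RNA inserted back into the genome. A short read from such a copy can often be placed on the parent gene as well.

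The members were of several kinds. By the GENCODE annotation, 10 were protein-coding (Gm21981, D630023F18Rik, Trub2, Gla, Tars2, Lifr, Gm9844, Smim27, Zc3hc1 and Ttc12). A further 5 were long non-coding RNAs (Bc1, 1700110I07Rik, Gm12051, Gm45699 and AA388235), 4 were processed pseudogenes (Rpl10-ps1, Gm12751, Gm9445 and Gm12351) and 3 were small RNAs (the snoRNAs Snora75 and Gm25345 and the snRNA Gm25541). Gm10271 was not found in the annotation release used here and was left without a kind. The 22 placed members lay on 11 chromosomes, with 5 of them on chromosome 7.

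The 4 shortest placed RNAs are printed here from the GRCm39 genome because their length and end sequences bear on how a library of longer fragments counts them. Snora75 lies at chr1:86278891-86279023 on the minus strand, inside the nucleolin gene Ncl. Gm25345 lies at chr7:87993177-87993309 on the plus strand, Gm25541 at chr2:27429817-27429942 on the minus strand and Bc1 at chr7:144468199-144468374 on the plus strand. Capitals mark the last ACA triplet in the snoRNAs, the run of T at the 3′ end of Gm25541 and the A-rich stretch of Bc1.
Snora75: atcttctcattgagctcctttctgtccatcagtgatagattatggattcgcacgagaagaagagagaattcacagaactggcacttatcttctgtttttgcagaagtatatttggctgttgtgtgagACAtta
Gm25345: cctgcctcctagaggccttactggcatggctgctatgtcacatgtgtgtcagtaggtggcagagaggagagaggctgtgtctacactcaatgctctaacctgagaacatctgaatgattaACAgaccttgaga
Gm25541: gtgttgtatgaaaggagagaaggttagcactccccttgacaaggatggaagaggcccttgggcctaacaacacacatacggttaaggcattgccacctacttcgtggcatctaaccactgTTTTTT
Bc1: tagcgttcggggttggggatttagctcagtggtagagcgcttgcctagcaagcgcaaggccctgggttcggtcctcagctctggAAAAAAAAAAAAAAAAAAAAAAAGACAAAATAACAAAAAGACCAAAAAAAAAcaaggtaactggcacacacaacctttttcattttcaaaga

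Snora75 carried its ACA triplet 3 bases from the 3′ end, the position known for H/ACA snoRNAs, which 276 of the 1507 annotated snoRNA transcripts (18.3%) also showed. In Gm25345 the last ACA lay 10 bases from the end. Gm25541 ended in a run of 6 T, the kind of end at which RNA polymerase III stops. Bc1 held an A-rich stretch of 52 bases inside the transcript. These matches describe the letters and say nothing of how the RNAs were made in these oocytes.

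All 4 printed RNAs were listed at 0 in every IVO library. Snora75 read 19.0, 21.2 and 11.04 FPKM in IVM1, IVM2 and IVM3. Gm25345 read 3.08, 6.03 and 5.64 FPKM, which placed it nearest to the lower limit of the rule. Gm25541 read 26.3, 27.9 and 14.9 FPKM. Bc1, a brain cytoplasmic RNA known as a regulator of translation in rodent neurons, read 13.97, 3.96 and 15.8 FPKM. Transcripts of 63 other genes held 77.3% of its bases at 90% identity or more, so the level of Bc1 is uncertain. In Bc1 the IVM pools themselves were far apart, while Gm25541 and Snora75 were lowest in the same pool, IVM3. The fifth member under 200 bases, Gm10271, read 9.97, 8.25 and 4.24 FPKM in the IVM libraries and 0, 0.46 and 0.28 FPKM in the IVO libraries. It was the member closest to the upper IVO limit.

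**Figure D1:**
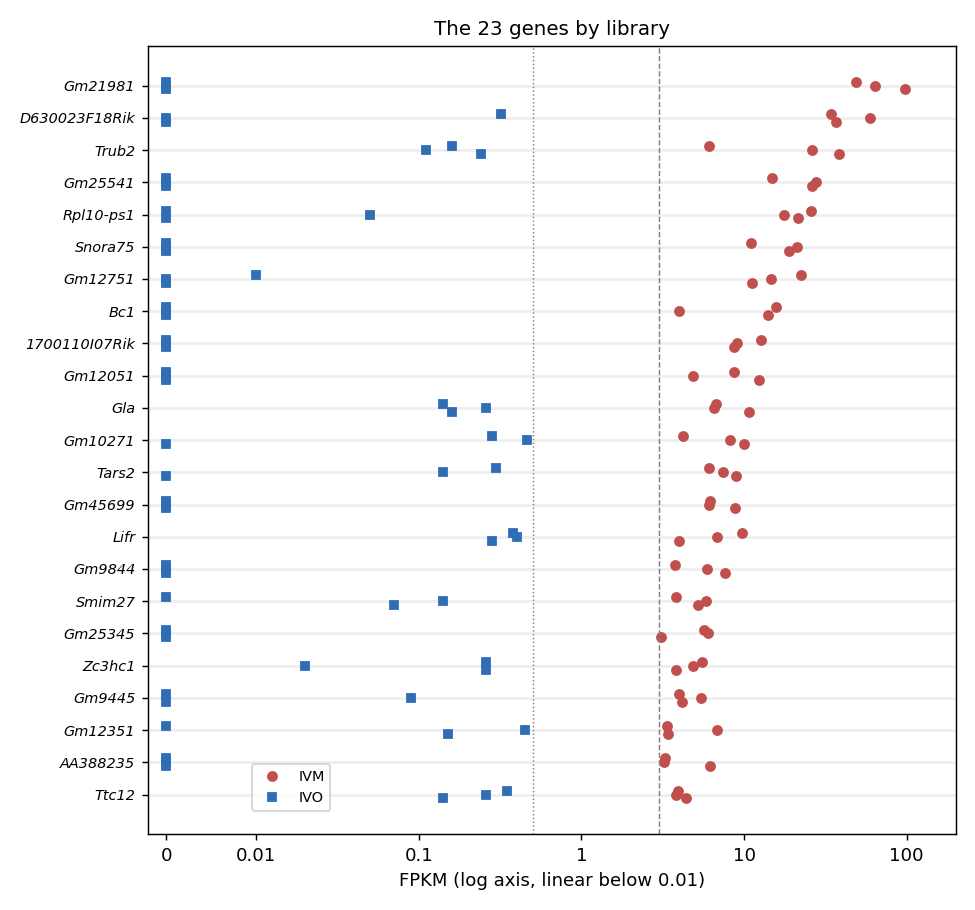
FPKM of each of the 23 members (rows, ordered by mean IVM level) in the 3 IVM libraries (red circles) and the 3 IVO libraries (blue squares), on a log axis that is linear below 0.01. The dashed and dotted lines mark the limits of the rule at 3 and 0.5 FPKM, and 10 members have all 3 blue squares at 0.

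The plot of the members by library shows the range that the rule admits. Mean IVM levels ran from 4.03 FPKM for Ttc12 to 70.3 FPKM for Gm21981, with a median of 7.49 FPKM, against a median of 25.6 FPKM for all 9342 genes with every IVM value at or above 3 FPKM. Together the members held 0.0146% to 0.0175% of the summed FPKM of an IVM library. The highest IVM pool differed between members, since 10 were highest in IVM1, 7 in IVM2 and 6 in IVM3. The coefficient of variation over the 3 IVM pools had a median of 32.1% for the members and 21.1% for the 9342 genes. It was lowest for Ttc12 at 7.64% and highest for Trub2 at 69.1%.

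The 10 members listed at 0 in all 3 IVO libraries were Gm21981, Gm25541, Snora75, Bc1, 1700110I07Rik, Gm12051, Gm45699, Gm9844, Gm25345 and AA388235. By the rule, any of the 9342 genes listed at 0 in every IVO library is a member. In the other direction, 0 of the 8584 genes with every IVO value at or above 3 FPKM were listed at 0 in all IVM libraries. A value of 0 in such a table can be a failed assignment of shared reads as well as a lack of reads, so no fold is given for these genes.

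The protein-coding members included several enzymes of known function. Gla encodes the lysosomal alpha-galactosidase A, which removes the terminal galactose of globo-series glycosphingolipids. It read 10.8, 6.57 and 6.77 FPKM in the IVM libraries and 0.16, 0.26 and 0.14 FPKM in the IVO libraries, a mean 43.1 times higher in IVM. From the steps between low FPKM values, the IVO values of Gla corresponded to about 8.0, 12.9 and 7.0 fragments. Gla was thus detected in each IVO pool at a low level.

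Tars2 encodes the mitochondrial threonyl-tRNA synthetase, which charges tRNA with threonine for translation inside mitochondria. It read 8.88, 7.43 and 6.06 FPKM in the IVM libraries and 0, 0.14 and 0.30 FPKM in the IVO libraries. The IVM pools were close to each other, and 1 of the IVO pools was listed at 0. Trub2, a mitochondrial pseudouridine synthase that modifies RNA, read 38.4, 26.3 and 6.13 FPKM in the IVM libraries and 0.24, 0.11 and 0.16 FPKM in the IVO libraries. Its mean was 139 times higher in IVM, although IVM3 lay far below IVM1.

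Lifr encodes the receptor of leukaemia inhibitory factor, which signals together with the shared subunit Il6st (gp130) through Janus kinases and Stat3. Lifr read 3.99, 6.81 and 9.70 FPKM in the IVM libraries and 0.28, 0.40 and 0.38 FPKM in the IVO libraries, a ratio of means of 19.3. Its IVO values corresponded to about 19.8, 27.9 and 26.6 fragments. Lifr was the longest member, with a listed length of 4143 bases, and had the largest number of IVO fragments among the 17 members long enough for an estimate.

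Zc3hc1 encodes NIPA, a protein of the nuclear pore basket. It read 3.81, 4.85 and 5.55 FPKM in the IVM libraries and 0.26, 0.02 and 0.26 FPKM in the IVO libraries, with a ratio of means of 26.3. Ttc12, which is needed for the assembly of ciliary dynein arms, read 4.38, 3.80 and 3.91 FPKM against 0.14, 0.26 and 0.35 FPKM, a ratio of 16.1. Both genes had IVM values just above the lower limit with little spread between pools. Smim27, a small membrane protein gene, read 5.21, 5.81 and 3.84 FPKM in the IVM libraries and 0.07, 0.14 and 0 FPKM in the IVO libraries. Other genes held 42.4% of the bases of Smim27 at 90% identity or more. It also shares 267 exon bases with Ndufb6 on the opposite strand, so its level is uncertain.

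The highest member was Gm21981, a predicted protein-coding gene on chromosome 17 at 47997664-48005380 on the minus strand. It read 97.6, 64.3 and 48.9 FPKM in the IVM libraries and was listed at 0 in all IVO libraries. In each IVO library, 3 fragments on a gene of this length would have given at most 0.0679 FPKM, against at least 2337 inferred fragments in every IVM library. The gene shares exon sequence on the same strand with 2 others: 859 bases with Tomm6, a small subunit of the outer mitochondrial membrane translocase, and 1123 bases with Prickle4. Tomm6 read 7.33, 12.8 and 9.50 FPKM in the IVM and 7.30, 5.90 and 6.44 FPKM in the IVO libraries (log2FC −0.50, SE 0.24, limma, Benjamini-Hochberg adjusted p = 0.187), and Prickle4 was listed at 0 in every library. Reads from the shared bases cannot be told apart, so the level of Gm21981 beside Tomm6 and Prickle4 is uncertain.

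D630023F18Rik, a predicted protein-coding gene on chromosome 1, read 36.8, 59.5 and 34.1 FPKM in the IVM libraries. It was listed at 0, 0 and 0.32 FPKM in the IVO libraries, the last of these from about 11.1 fragments. The lens crystallin gene Cryga, 1899 bases away, read 6.30, 4.39 and 5.05 FPKM in the IVM and 0.36, 0 and 0.73 FPKM in the IVO libraries. Cryga was not a member only because of IVO3, and it is named here after its values were seen. Over all annotated transcripts, D630023F18Rik shares 383 exon bases on the same strand with Gm28845, which was listed at 0 in every library. The level of D630023F18Rik beside Gm28845 is therefore uncertain.

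Several members were copies of other genes, and the values of both copies are given together because shared reads are divided between them by the estimation step. Of the 22 members with an annotated transcript, 6 had at least 80% of their bases in transcripts of other genes at 90% identity or more, and 6 had under 10% (Tars2, Zc3hc1, Gm9445, Ttc12, D630023F18Rik and Gm12051). Only the transcript nearest to the listed length was compared, so other transcripts of a member can share more. Rpl10-ps1, a processed pseudogene of the large ribosomal subunit gene Rpl10, was identical to it over its whole length of 645 bases. Rpl10-ps1 read 21.6, 17.6 and 25.8 FPKM in the IVM libraries and 0, 0.05 and 0 FPKM in the IVO libraries. Rpl10 itself read 213, 117 and 153 FPKM in the IVM and 65.0, 63.9 and 81.1 FPKM in the IVO libraries (log2FC −1.16, SE 0.25, limma adjusted p = 0.0176). A further copy of the same sequence, Rpl10-ps3, had a log2FC of −2.43 (limma adjusted p = 0.00123). The call of Rpl10 was lost under median-ratio scaling and quantile normalization and that of Rpl10-ps3 was kept. Neither test is independent of the rule, because identical reads are divided among the copies. The sum over the 12 listed genes closest to Rpl10-ps1 was 175 to 268 FPKM in IVM and 79.4 to 95.6 FPKM in IVO. The family as a whole was thus still present in IVO, and the share assigned to the pseudogene was near 0.

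Gm12751 was identical over its 381 bases to Polr1d, a subunit shared by RNA polymerases I and III. The pseudogene read 11.3, 14.7 and 22.4 FPKM in the IVM libraries and 0, 0 and 0.01 FPKM in the IVO libraries. Polr1d read 80.6, 63.6 and 61.5 FPKM in IVM and 22.2, 22.2 and 24.9 FPKM in IVO (log2FC −1.52, SE 0.19, limma adjusted p = 0.0028). Identical reads are divided between Polr1d and the pseudogene, so this value is not independent of the rule. Gm12351, 103467 bases further along chromosome 4, resembles the ribosomal protein gene Rpl37 at 88.4% identity. It read 3.42, 6.81 and 3.36 FPKM in the IVM and 0.15, 0.45 and 0 FPKM in the IVO libraries. Rpl37 had a log2FC of −1.23 (limma adjusted p = 0.0124), a call lost under the same scalings, while Rpl37rt, 88.7% identical to the member, averaged 993 ± 62.8 FPKM in IVM and 998 ± 65.5 FPKM in IVO (SD, n = 3 pools each). Gm2623, a processed pseudogene 85.1% identical to the member, read 232, 291 and 141 FPKM in IVM and 68.0, 57.0 and 44.6 FPKM in IVO. In the main fit Gm2623 was called lower (log2FC −1.91, limma adjusted p = 0.00611).

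Gm9844, named Tmsb10b in the annotation, is a single-exon copy of Tmsb10, which encodes an actin monomer-binding thymosin. It read 7.61, 5.91 and 3.74 FPKM in the IVM libraries and was listed at 0 in all IVO libraries. Tmsb10, 91.6% identical, read 657, 455 and 385 FPKM in the IVM and 24.5, 21.9 and 27.6 FPKM in the IVO libraries (log2FC −4.26, SE 0.24, limma adjusted p = 0.00056). Among the relatives shown, Tmsb10 had the lowest log2FC. Because it may exchange reads with the member, this value is not independent of the rule. Gm9445 is a processed pseudogene 82.5% identical to Plin3, which coats lipid droplets. The pseudogene read 4.16, 5.46 and 3.99 FPKM in IVM and 0, 0.09 and 0 FPKM in IVO. Plin3 did not pass the test, with 4.54 ± 2.24 FPKM in IVM and 7.88 ± 0.921 FPKM in IVO (SD, n = 3 pools each, log2FC 0.77, limma adjusted p = 0.162), and was called higher under quantile normalization (log2FC 1.26).

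**Figure D2:**
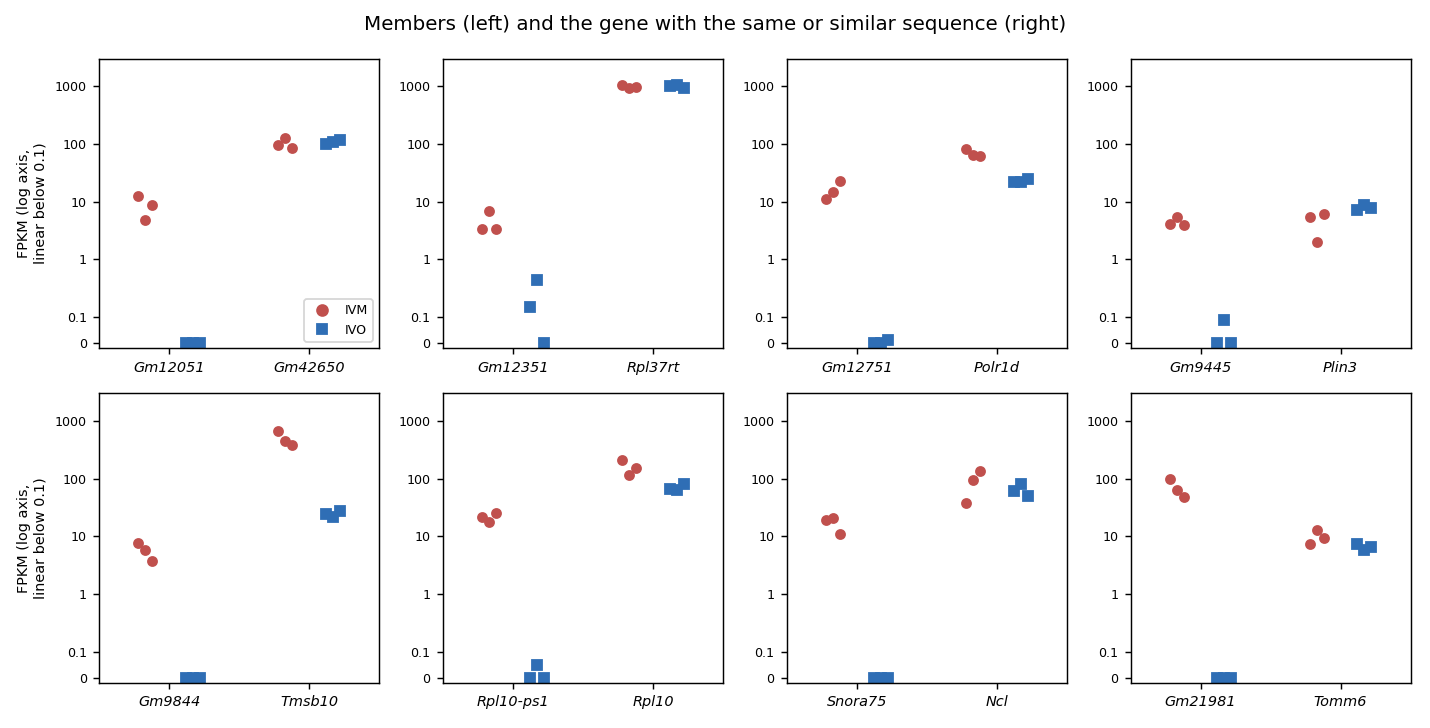
FPKM in the 3 IVM (red circles) and 3 IVO libraries (blue squares) of 8 members (left of each panel) and of a gene that shares or resembles their sequence (right), on a log axis that is linear below 0.1. All 8 members are at or near 0 in IVO, which the rule fixes. The gene on the right, picked among the relatives of the member, stays at or above 5.90 FPKM there in every panel. Other relatives are not drawn, among them Prickle4, which was listed at 0 in every library.

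For Snora75 the related gene is its host. The 133 bases of Snora75 lie within Ncl, which encodes nucleolin, a protein of ribosome assembly. All 133 are also annotated exon bases of Ncl on the same strand. Reads from them cannot be told apart, so the level of Snora75 is uncertain. For the same reason the Ncl values are not independent of the rule. Ncl read 38.1, 94.5 and 135 FPKM in the IVM libraries and 60.7, 81.1 and 49.7 FPKM in the IVO libraries, so the groups overlapped (log2FC −0.33, SE 0.45, limma adjusted p = 0.645). The IVM pool with the highest host value, IVM3, was the one with the lowest Snora75 value. A list of 6 genes held core proteins of H/ACA particles (Dkc1, Nop10, Nhp2 and Gar1) and their assembly factors (Naf1 and Shq1). All 6 were tested and 0 were called by limma in either direction. Among all tested genes, 17.9% were called lower and 0.606% higher. An unadjusted limma p under 0.05 was found for 3 of the 6, which missed a call by fold change alone. Nhp2 and Nop10 were lower in IVO (log2FC −0.94 and −0.84, limma adjusted p = 0.0189 and 0.024). Dkc1 was higher (log2FC 0.67, limma adjusted p = 0.0221). Gm25541 had 6 listed close copies elsewhere in the genome, whose summed level did not pass 0.08 FPKM in any library. For Gm25345, 4 other genes held 85.7% of the bases at 90% identity or more, and its level is uncertain for that reason. At a lower identity limit, 224 other annotated genes held a similar sequence.

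The remaining long non-coding members had little known function. 1700110I07Rik, which spans many pseudogenes on chromosome 7, read 8.71, 9.02 and 12.7 FPKM in the IVM libraries. Gm12051 on chromosome 11 read 12.4, 4.83 and 8.65 FPKM. Gm45699 on chromosome 9 read 8.80, 6.11 and 6.20 FPKM, and AA388235 on chromosome 17 read 6.20, 3.22 and 3.27 FPKM. All 4 were listed at 0 in every IVO library, where 3 fragments would have given at most 0.127 FPKM for Gm45699 and 0.363 FPKM for AA388235. These floors do not cover the assignment of shared reads. Other genes held 74.7% of the bases of 1700110I07Rik, 47.2% of Gm45699, 35.1% of AA388235 and 6.86% of Gm12051 at 90% identity or more. Gm12051 resembles another non-coding RNA, Gm42650, at 83.3% identity, and Gm42650 averaged 101 ± 21.5 FPKM in IVM and 109 ± 9.79 FPKM in IVO (SD, n = 3 pools each, log2FC 0.13, limma adjusted p = 0.694).

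Length and kind were not used by the rule. The median listed length was 1044 bases (range 126 to 4143), against 2429 bases for the 9342 genes with every IVM value at or above 3 FPKM. Applied without IVM1 the rule gave a median of 381 bases, and without IVO3 1576 bases. Of the 70 such genes under 200 bases, 5 were members (7.14%), while 7 of the 5532 genes of 2000 bases or more were (0.127%). Members made up 0.129% of the 7747 protein-coding genes, 0.546% of the 915 long non-coding RNAs, 0.842% of the 475 pseudogenes and 5.66% of the 53 small or structural RNAs. A single exon was annotated for 9 of 22 members (40.9%) and for 6.84% of the 9272 high-IVM genes with a transcript. The GC content was similar, at a median of 49.1% for the members and 48.1% for the comparison genes.

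**Figure D3:**
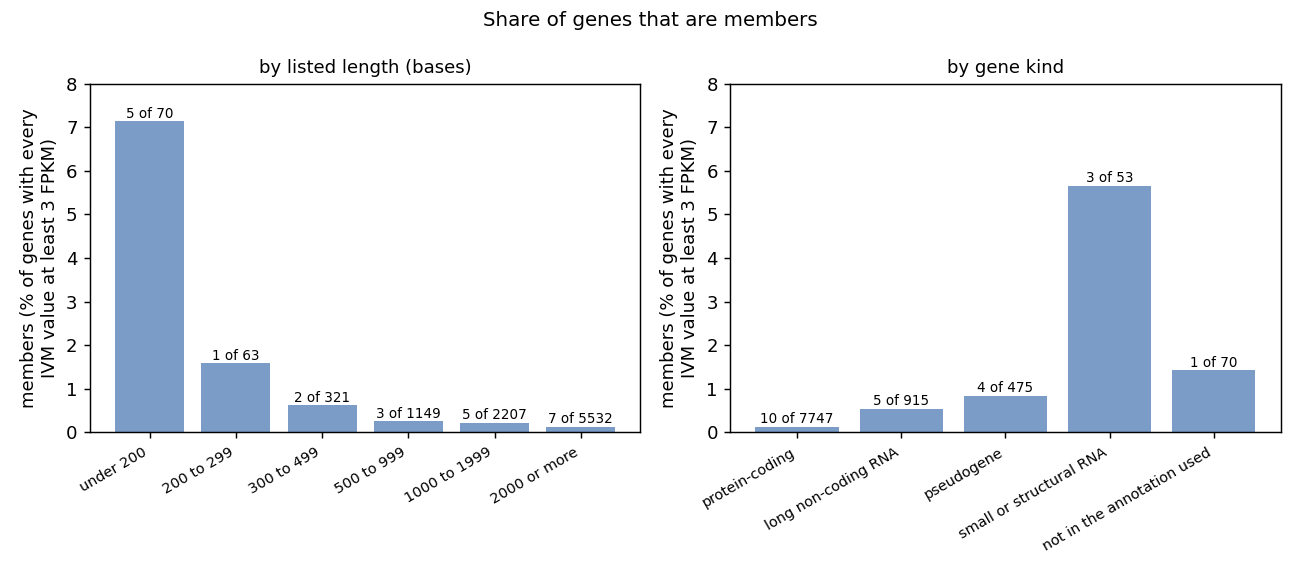
Members as a percentage of the Ensembl genes with every IVM value at or above 3 FPKM, by listed length (left) and by annotated kind (right), with the number of members and genes above each bar. The share is highest for genes under 200 bases (5 of 70) and for small or structural RNAs (3 of 53), both resting on few genes.

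Between the 5 members and the remaining 65 genes under 200 bases lay a gap in the IVO values, since each of the 65 reached at least 2.24 FPKM in some IVO library. Their mean levels had a median of 22.0 FPKM in IVM and 15.8 FPKM in IVO, and 23 of them had a log2FC above 0. In 17 of the 65, every IVM value was above every IVO value, a pattern found in 32.6% of all tested genes. The inferred mean fragment length was 196 to 217 bases in the IVM libraries and 249 to 264 bases in the IVO libraries. All these fragments were longer on average than the 5 shortest members, and the part of fragment length in their FPKM was not tested. Among genes with enough length for an estimate, every IVM library had at least 20.5 fragments for each member. For Gm12751 and Gm9844, 3 fragments were worth up to 1.40 and 0.743 FPKM in an IVO library, above the 0.5 FPKM limit, so their IVO values rest on fewer than 3 fragments.

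**Figure D4:**
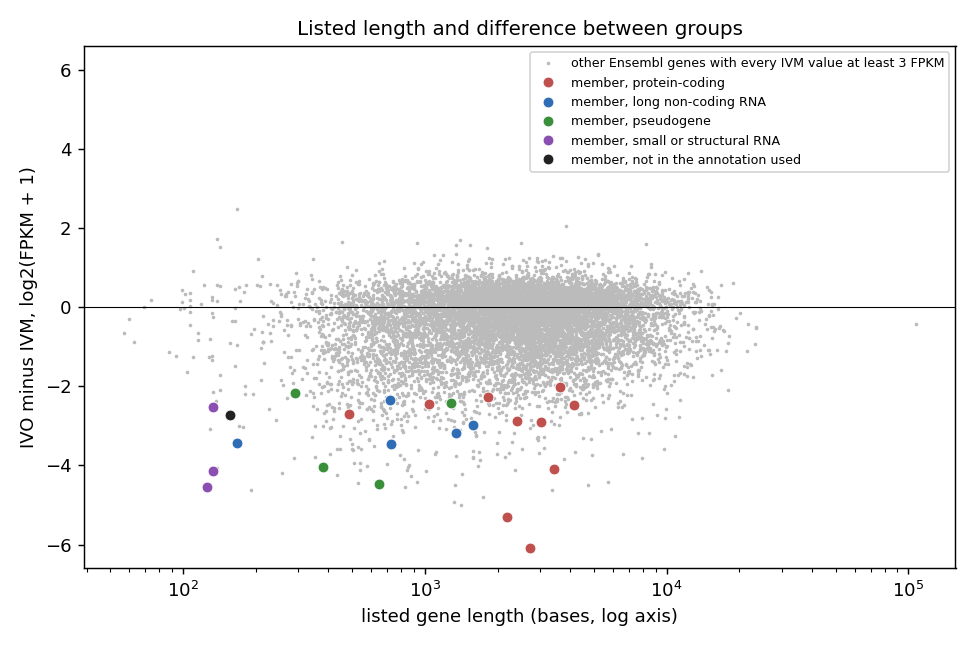
Difference between IVO and IVM in mean log2(FPKM + 1) against listed gene length (log axis) for the 9342 Ensembl genes with every IVM value at or above 3 FPKM (grey) and the 23 members (coloured by kind). The members span −2.01 (Ttc12) to −6.10 (Gm21981), as their choice requires, and are found from 126 to 4143 bases.

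In the limma fit over 18818 genes, differentially expressed genes had an absolute log2FC of at least 1 and an adjusted p under 0.05. This called 17.9% of the genes lower in IVO and 0.606% higher. All 23 members were called lower, which the rule fixes and from which nothing is read. Every IVM value was above every IVO value in 32.6% of the tested genes, and the rule requires this of all members. The median log2FC was −2.90 for the members and −0.30 for all tested genes. At the limits, the members just inside had lowest IVM values of 3.08 (Gm25345), 3.22 (AA388235) and 3.36 FPKM (Gm12351), and the genes just outside had 2.90 (Odf1), 2.85 (1500004A13Rik) and 2.81 FPKM (2310043O21Rik). The highest IVO values just inside were 0.46 (Gm10271), 0.45 (Gm12351) and 0.40 FPKM (Lifr), and those just outside were 0.54 (1700007L15Rik), 0.55 (4930470P17Rik) and 0.56 FPKM (Plxnb2).

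The rule did not choose the genes around the members, but some of these genes share bases with a member. Overlapping genes, or otherwise the nearest gene within 10000 bases, gave 39 listed neighbours of 16 members, of which 24 were at 0 in every library and 8 passed the filter of a mean of 1 FPKM. In the limma fit 2 of the 8 were called lower in IVO (against 17.9% of all tested genes) and 0 higher, with 3 lower and 1 higher at an unadjusted p under 0.05. Of the 8, only Gm13547 and Rprd2 shared no exon bases with their member. The others may exchange reads with a member, so their values are not independent of the rule. Gm13547, a pseudogene within an intron of Trub2 on the other strand, read 16.4, 13.3 and 4.68 FPKM in IVM and 2.30, 3.04 and 2.77 FPKM in IVO (log2FC −1.60, SE 0.42, limma adjusted p = 0.0326). Its values in IVM were ordered like those of Trub2, with IVM3 the lowest. Rpl36a, a ribosomal protein gene that overlaps the end of Gla, had a log2FC of −1.13 (SE 0.27, limma adjusted p = 0.0239). Both calls were lost under other scalings and when single libraries were left out.

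The remaining tested neighbours did not pass both thresholds. At the other end of Gla, the splicing regulator Hnrnph2 read 5.15, 9.83 and 9.23 FPKM in IVM and 15.3, 17.4 and 10.5 FPKM in IVO (log2FC 0.78, limma adjusted p = 0.108). It was called higher under median-ratio scaling (log2FC 1.07) and quantile normalization (1.27). Rprd2, 135 bases from Tars2, had a log2FC of −0.66 (limma adjusted p = 0.0478), below the fold threshold. Topors and the complex I subunit gene Ndufb6, which overlap Smim27 on the opposite strand, had log2FC values of −0.05 and −0.35 (limma adjusted p = 0.912 and 0.369). The library kit does not mark strand, and 7 members shared exon bases with a gene on the opposite strand. Trub2 and Coq4 shared the most among genes above 0, with 921 bases, and Coq4 stayed between 0.22 and 1.15 FPKM in all libraries.

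Genes that act with the protein-coding members were counted from lists drawn up after the members were known. Of 10 genes of LIF receptor signalling, 6 were tested and 0 were called in either direction by limma. Among all tested genes, 17.9% were called lower and 0.606% higher. An unadjusted limma p under 0.05 was found for 0 of the 6. Il6st, the signalling partner of Lifr, read 7.85, 5.66 and 8.15 FPKM in IVM and 8.47, 7.91 and 7.36 FPKM in IVO, so that the groups overlapped. Lif itself did not pass 0.02 FPKM in any library. Of 15 other mitochondrial aminoacyl-tRNA synthetases, 6 were tested and 2 were called lower (Nars2 and Iars2), against 17.9% of all tested genes called lower. An unadjusted limma p under 0.05 was found for 5 of the 6. Rars2 missed a call by fold change alone (log2FC −0.94, limma adjusted p = 0.038). Nars2, the asparaginyl enzyme, came closest to the pattern of Tars2, with 2.12, 3.98 and 10.9 FPKM in IVM and 0, 0.11 and 0 FPKM in IVO (log2FC −2.46, SE 0.48, limma adjusted p = 0.0119). It missed the rule by its IVM1 value alone. Under median-ratio scaling and quantile normalization Nars2 stayed called and Iars2 did not.

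Of 12 other pseudouridine synthases, 8 were tested and 0 were called by limma, against 17.9% of all tested genes called lower and 0.606% higher. An unadjusted limma p under 0.05 was found for 1 of the 8. Trub1, the paralogue of Trub2, averaged 768 FPKM in IVM and 992 FPKM in IVO (log2FC 0.38, limma adjusted p = 0.148), and Dkc1, the enzyme of H/ACA snoRNA particles, averaged 496 and 786 FPKM (log2FC 0.67, limma adjusted p = 0.0221, below the fold threshold). Dkc1 was called higher under quantile normalization (log2FC 1.13). Of 11 other lysosomal sphingolipid hydrolases and activators, 4 were tested and 2 were called lower, both at an unadjusted p under 0.05, with 17.9% of all tested genes called lower. Galc, which splits galactosylceramide, read 3.84, 3.22 and 4.33 FPKM in IVM and 1.19, 1.28 and 1.06 FPKM in IVO (log2FC −1.13, SE 0.22, limma adjusted p = 0.0126), a call lost under both scalings. Smpd1, acid sphingomyelinase, read 5.82, 2.15 and 6.80 FPKM in IVM and 1.17, 0.59 and 0.43 FPKM in IVO (log2FC −1.70, SE 0.39, limma adjusted p = 0.022), a call kept under both scalings and lost when IVM1, IVM3, IVO2 or IVO3 was left out.

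Markers of other cells were measured beside the set. All 10 markers of MII oocytes were present, with sums of 21300 to 27800 FPKM in IVM and 21100 to 23300 FPKM in IVO, most of it from Oosp1 and Dppa3. The markers were not level: in 6 of the 10 every IVM value was above every IVO value (32.6% of all tested genes), and limma called 4 lower and 0 higher. These 4 were the zona pellucida genes Zp1, Zp2 and Zp3 (log2FC −2.43, −3.69 and −3.13, limma adjusted p = 0.00212, 0.00119 and 0.00202) and the maternal-effect gene Nlrp5 (log2FC −1.99, limma adjusted p = 0.00351). They moved in the direction of the set but stayed at 26.0 FPKM or more in every IVO library, and their relation to the members was not tested. Of 14 cumulus or granulosa markers, 4 reached 1 FPKM in some library of each group, the sums were 31.4 to 63.2 FPKM in IVM and 36.9 to 59.4 FPKM in IVO, and Amh was at 0 in every library. The 5 blood markers summed to 1.73 to 2.45 FPKM in IVM and 2.92 to 21.6 FPKM in IVO, where Lyz2 read 15.7 FPKM in IVO3. The 5 oviduct markers summed to 2.93 to 3.16 FPKM and 3.26 to 5.71 FPKM. Every IVO value was above every IVM value in 3 cumulus markers (Has2, Ptx3 and Tnfaip6, at up to 0.49 FPKM) and 2 blood markers (Cd68 and Lyz2). The reverse held for 0 cumulus, 0 blood and 1 oviduct marker. The share of all genes with every IVO value above every IVM value was not counted. No marker was a member, and their part in the values of the set was not tested. By symbol family, members included 1 of 104 ribosomal protein genes and pseudogenes with every IVM value at or above 3 FPKM, 1 of 9 small nucleolar and nuclear RNA symbols, and 0 of 91 genes of oxidative phosphorylation.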

How the data were processed

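RNA of 6 pools of MII oocytes was converted to cDNA with the SMART-Seq v4 kit, which primes at poly(A) tails and is not built to capture RNA without a tail, and libraries were made with Nextera XT, so strand was not kept. The submitters' processing notes name the GRCm39 build, HISAT2 2.1.0, RSEM 1.3.3 and DESeq2 1.24.0, and the annotation release is not given in the sources used here. The deposited values are FPKM per gene and library, with pooled group means that were not used. RSEM divides reads that match several genes by estimation, and for transcripts shorter than a fragment the length correction decides much of the FPKM.

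The members and gene lists were chosen with earlier results of these data known. All members are named, and the lists of related genes are not complete, since some genes are not reported here. Genes with a mean of at least 1 FPKM entered limma 3.58.1 under R 4.3.3 (linear fit, then moderated with a trend) on log2(FPKM + 1), with the group alone in the model and two-sided p-values corrected after Benjamini and Hochberg over the 18818 genes. Fold changes on this scale understate the change of low genes. The methods of the study name a count test, which FPKM do not allow. With 3 against 3 pools, an exact permutation test cannot go below p = 0.1.

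Depth was inferred from the steps of low FPKM values of genes of 500 to 4000 bases, and gave 16500000 to 19300000 fragments in the IVM and 17900000 to 18200000 in the IVO libraries. Of the low values, 74.4% to 77.3% came out whole within 0.15 of a fragment. No counts were rebuilt for a count test. Fragment numbers were not given for 6 members that were too short. A level worth 3 fragments serves as the floor, which covers counting error alone because PCR copies are not separate molecules.

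Kinds, positions and sequences were taken from GENCODE release 39 and the GRCm39 genome, where 22 of 23 members were found. Transcripts were compared with blastn 2.17.0, and numpy 2.4.6 and pandas 2.3.3 under Python 3.11.15 made the tables. The estimation of depth and the limma fit were tested on simulated data. The alternatives were other limits of the rule, other pseudocounts, filters and scalings, Ensembl genes alone, the replicate block and the removal of each library.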

Additional observations from a re-analysis of the deposited data

How the results depend on the processing

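The size of the set depends on its limits. An IVM limit of 2 FPKM gave 42 members and of 5 FPKM gave 11, and an IVO limit of 0.25 FPKM gave 15 and of 1 FPKM gave 52. Leaving out 1 library can only add genes, and gave 33 to 49 members (42 without IVM1, 39 without IVM2, 43 without IVO1 and 49 without IVO3). Median-ratio scaling kept 19 of the 23, and the median length of 1044 bases ranged from 381 (without IVM1) to 1576 bases (without IVO3, with an IVM limit of 5 FPKM or without short genes) and was 717 bases with an IVO limit of 0.25 FPKM. The protein-coding share of 43.5% ranged from 26.7% (IVO limit of 0.25 FPKM) to 58.8% (members of 300 bases or more). The mean filter of 5 FPKM left 9 members tested, all called, and in the other fits all 23 members were called lower. Without the assembled loci, 2056 genes were called in place of 3480. The calls split into 3366 lower and 114 higher in the main analysis, 2078 and 389 under median-ratio scaling, and 1580 and 1097 under quantile normalization. The median log2FC of all tested genes moved from −0.30 to −0.03 and 0.17 under these scalings.

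The 2 called neighbours became 0 without the filter, under median-ratio scaling, under quantile normalization and among neighbours on the same strand, and 0 to 2 when a library was left out (0 without IVM1, IVO2 or IVO3 and 1 without IVM2 or IVO1). The cause was not tested. Under median-ratio scaling and quantile normalization the neighbour Hnrnph2 was called higher in their place (1.07 and 1.27), and quantile normalization also gained Plin3 (1.26) and Dkc1 (1.13) and the pseudocount of 0.1 gained Nhp2 (−1.23). The call of Rpl10 was also lost without IVM1, IVO1 or IVO2. That of Smpd1 was also lost without the filter. Tmsb10, Polr1d, Rpl10-ps3 and Nars2 stayed called lower in every alternative in which they were tested, with log2FC values of −4.42 to −3.78, −1.59 to −1.03, −2.60 to −1.93 and −5.18 to −1.93. The sign turned only for genes that were not called: Topors to 0.22 under median-ratio scaling and 0.43 under quantile normalization, Ncl to 0.18 and Ndufb6 to 0.15 under quantile normalization, and with a library left out Topors (−0.16 to 0.12), Ncl (−0.84 to 0.06), Il6st (−0.02 to 0.21) and Rpl37rt (−0.03 to 0.06).

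With the replicate number as a block, 2991 genes and 2 neighbours were called, and all 23 members. Same-numbered libraries did not deviate together (correlations of −0.062, −0.018 and −0.107 across genes), so they share only a number. With fewer than 3 fragments a member is below what these depths can show, and levels of the 6 shortest members have no fragment estimate.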

Other observations

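The table also lists 6493 assembled loci without a gene name. By the same limits, 23 of them were at or above 3 FPKM in every IVM library and at or below 0.5 FPKM in every IVO library, and 0 met the mirror rule.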
